A study of Mus musculus with 4 samples.

Results

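The genes described here are 10 genes of Fc receptor and TREM2-TYROBP signaling, which were taken by gene name from the 33981 genes of the joined tables. They are the adaptors Tyrobp and Fcer1g, the receptor Trem2, the IgG receptors Fcgr1, Fcgr2b, Fcgr3 and Fcgr4, and the signaling enzymes Syk, Plcg2 and Inpp5d. All mice were male C57BL/6J mice of 3 to 5 months of age. Normotensive (NT) mice were infused with saline and hypertensive (HT) mice with angiotensin II (0.28 mg per kg of body weight each day), both for 28 days. Sham surgery or a photothrombotic stroke aimed at the prefrontal cortex followed on day 7 of the infusion, and brains were taken on day 28. In this model a light-activated dye clots the vessels under the light beam. Poly(A) RNA of a coronal brain section that included the prefrontal cortex was sequenced in 24 libraries, 6 from each of the groups NT + Sham, HT + Sham, NT + Stroke and HT + Stroke. Each library was treated as 1 mouse, as the tables number 6 libraries in each group, and no source used here says whether any libraries came from the same animal. P-values measure the spread between these libraries.

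As background, TYROBP (also called DAP12) and the Fc receptor gamma chain, the product of Fcer1g, are small membrane adaptors with no ligand-binding part of their own. Each carries an immunoreceptor tyrosine-based activation motif (ITAM). TREM2, which binds lipids and lipoproteins, signals through TYROBP, and the activating IgG receptors signal through the gamma chain. When the receptors are cross-linked, the tyrosines of the motif are phosphorylated and bind the kinase SYK, which activates the phospholipase PLCG2. The phosphatase SHIP1, the product of Inpp5d, and the inhibitory IgG receptor FCGR2B, which recruits SHIP1, oppose this signal. In the brain the pathway is best known from microglia and macrophages, where it takes part in phagocytosis and in the response to injury.

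The motifs that set the adaptors and the inhibitory receptor apart can be read from the coding sequences. They are shown here because the activating and inhibitory arms of the pathway are compared further on. The sequences are from the GENCODE release M21 transcripts, 5′ to 3′ on the coding strand, with the tyrosine codons in capitals. The first is the ITAM of Tyrobp (codons 92 to 106 of 114), the second the ITAM of Fcer1g (codons 65 to 79 of 86) and the third the inhibitory motif of Fcgr2b (codons 317 to 322 of 340 in the longest transcript).
Tyrobp: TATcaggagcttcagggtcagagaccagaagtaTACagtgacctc
Fcer1g: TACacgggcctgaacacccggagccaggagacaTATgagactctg
Fcgr2b: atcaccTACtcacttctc
Both adaptors hold a pair of tyrosine codons in a stretch of 45 bases, and the inhibitory motif of Fcgr2b holds 1 tyrosine codon in 18 bases.

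The total count per library ranged from 15922919 to 24865998 (median 18497216). Expression is given as CPM, counts scaled to the same total for every library, with TMM-scaled library sizes, and a level is the value in 1 mouse. In all, 3 mice stood apart from their groups in Gfap, C3 and Lgals3, which are injury-related genes of astrocytes, complement and phagocytes. Mice 1 and 6 of HT + Stroke had 249 and 231 CPM of Gfap, where the other HT + Stroke mice had 920 to 1346. Mouse 6 of HT + Sham had 550 CPM of Gfap, where the other HT + Sham mice had 163 to 242. The RNA was from whole tissue, so more cells of a type and more RNA per cell cannot be told apart. Neuronal markers of cortex were abundant in all mice (3981 to 6425 CPM summed over 6 genes), while the summed striatal markers ranged from 151 to 1610 CPM and the summed olfactory bulb markers from 23.1 to 355 CPM.

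Stroke in normotensive mice was accompanied by higher expression of all 10 members. In NT + Stroke vs NT + Sham, 10 of 10 members rose with an adjusted P under 0.05 by edgeR's quasi-likelihood test. Fcgr4 passed the filter on low counts only through the NT + Stroke mice, so it could be tested only because it was high there. With at least 10 counts required in every library it was left out, and 9 of 9 members were called. Of 16835 genes tested, 14.4% were higher and 11.5% were lower by the same rule. The members' median log2 fold change was 1.59, and that of all genes tested was -0.01. In 9 of 10 members every NT + Stroke mouse exceeded every NT + Sham mouse, which held for 7.78% of all genes. Inpp5d was the exception.

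The adaptors rose about equally. Tyrobp (ENSMUSG00000030579, chromosome 7, 30413760 to 30417585, plus strand, GRCm38) was 16.2 to 19.4 CPM (median 18) in NT + Sham and 37.1 to 87.7 CPM (median 56.9) in NT + Stroke. Fcer1g (ENSMUSG00000058715, chromosome 1, 171229572 to 171234365, minus strand) was 9.40 to 14.7 CPM (median 12.9) and 25.2 to 48.1 CPM (median 39.8). The lowest NT + Stroke mouse lay above the highest NT + Sham mouse in both genes, and mice 4 and 5 were the lowest of the NT + Stroke group. The log2 fold change was 1.70 for Tyrobp (SE 0.19, adjusted P = 3.86e-05), a 3.25-fold difference, and 1.58 for Fcer1g (SE 0.173, adjusted P = 1.84e-05), a 2.99-fold difference.

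Trem2 (ENSMUSG00000023992, chromosome 17, 48346401 to 48354147, plus strand), the lipid receptor that pairs with TYROBP, was 18.5 to 28.3 CPM (median 21.3) in NT + Sham and 46.0 to 100 CPM (median 72.9) in NT + Stroke. Its log2 fold change was 1.67 (SE 0.196, adjusted P = 6.55e-05), within the interval of Tyrobp (95% interval 1.29 to 2.11).

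Among the activating IgG receptors, Fcgr4 was the one with the largest increase. Fcgr4 (ENSMUSG00000059089, chromosome 1, 171018920 to 171029761, plus strand), a receptor of intermediate affinity, had 1 to 4 counts per mouse in NT + Sham and 46 to 69 in NT + Stroke. Its levels were 0.0534 to 0.218 CPM and 2.01 to 3.86 CPM, with a log2 fold change of 4.10 (SE 0.303, 95% interval 3.46 to 4.74, adjusted P = 8.2e-08). The NT + Sham group held 18 counts in all, and the ratio of summed counts per library total was 18.1 with an exact interval of 11.3 to 31 that covers counting error only. The size of this change therefore rests on few sham counts, while the 2 groups of mice did not overlap.

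Fcgr1 (ENSMUSG00000015947, chromosome 3, 96282909 to 96293969, minus strand), the high-affinity receptor, was 1.76 to 3.88 CPM (median 2.97) in NT + Sham and 6.14 to 12.1 CPM (median 9.31) in NT + Stroke. Fcgr3 (ENSMUSG00000059498, chromosome 1, 171051174 to 171064935, minus strand), a low-affinity receptor, was 11.7 to 16.1 CPM (median 14.9) and 25.3 to 51.5 CPM (median 37.9). The groups did not overlap in either gene. The log2 fold change was 1.60 for Fcgr1 (SE 0.186, adjusted P = 7.02e-06) and 1.36 for Fcgr3 (SE 0.162, adjusted P = 3.15e-05).

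Fcgr2b (ENSMUSG00000026656, chromosome 1, 170958617 to 170976547, minus strand), the inhibitory receptor, rose as well. It was 2.99 to 4.74 CPM (median 3.98) in NT + Sham and 11.8 to 23.1 CPM (median 14.4) in NT + Stroke mice. The log2 fold change was 1.98 (SE 0.174, adjusted P = 6.52e-07). Fcgr2b and Fcgr3 are paralogs in a cluster on chromosome 1. Of all 100-base windows of its transcripts, 1.4% occur unchanged in another gene for Fcgr2b and 2.54% for Fcgr3. Windows that differ by a few bases were not searched, and an exchange of reads between both genes was not tested. Fcgr2b also shares 155 exon bases, 2.68% of its exon length, with Gm38204 on the other strand, and reads there are uncertain because strand use in counting was not given in the sources used here.

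The enzymes downstream of the receptors rose as well. Syk (ENSMUSG00000021457, chromosome 13, 52583173 to 52648792, plus strand), the kinase that docks on the motif, was 2.60 to 4.07 CPM (median 3.70) in NT + Sham mice and 6.58 to 13 CPM (median 9.12) after stroke, a log2 fold change of 1.41 (SE 0.162, adjusted P = 5.63e-06). Plcg2 (ENSMUSG00000034330, chromosome 8, 117498291 to 117635142, plus strand), the phospholipase downstream of SYK, was 2.48 to 4.22 CPM (median 3.04) and 5.41 to 8.69 CPM (median 7.13), with a log2 fold change of 1.10 (SE 0.158, adjusted P = 4.89e-05). Inpp5d (ENSMUSG00000026288, chromosome 1, 87620312 to 87720507, plus strand), which encodes SHIP1, was 10.6 to 14.6 CPM (median 12.4) and 12.3 to 20.8 CPM (median 17.9). It had the smallest increase of the members, with a log2 fold change of 0.45 (SE 0.122, 95% interval 0.20 to 0.71, adjusted P = 0.0102), and 4 of 6 NT + Stroke mice exceeded every NT + Sham mouse.

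**Figure D1:**
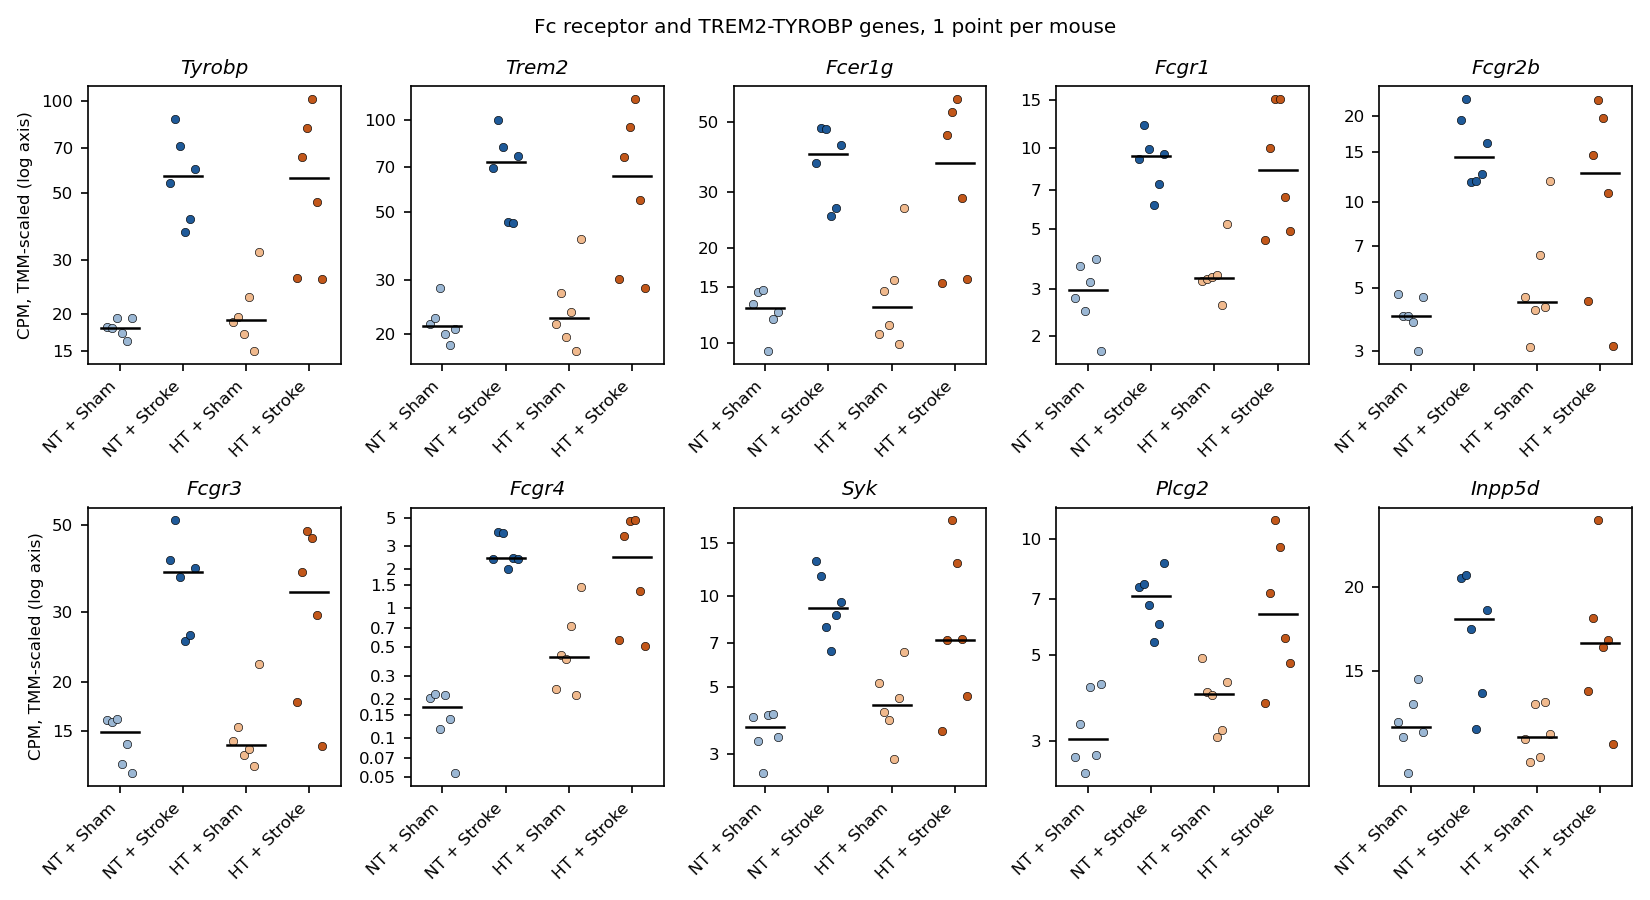
Level of each member in every mouse, as TMM-scaled CPM on a log axis, with 1 point per mouse and a line at the group median (6 mice per group). NT + Stroke mice lie above all NT + Sham mice in each gene except Inpp5d, and in HT + Stroke the lowest mice reach the levels of HT + Sham.

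Levels of different genes were compared per length, as FPKM. In NT + Sham the order was Tyrobp (26.9), Fcer1g (14.5), Fcgr3 (8.19), Trem2 (4.42), Inpp5d (1.64), Fcgr1 (1.13), Plcg2 (0.757), Fcgr2b (0.691), Syk (0.379) and Fcgr4 (0.124), as group means. The ranges of neighbours in this order overlapped between Inpp5d and Fcgr1, between Fcgr1 and Plcg2, and between Plcg2 and Fcgr2b. In NT + Stroke the first 4 genes kept this order, with 90.3 FPKM for Tyrobp, 44.7 for Fcer1g, 21.8 for Fcgr3 and 14.6 for Trem2, and each was above the next in 6 of 6 mice. Inpp5d moved from rank 5 to rank 7, with a mean of 2.34 FPKM, and Fcgr4 from rank 10 to rank 8, with 2.31. These genes could not be ordered against each other, since Inpp5d was above Fcgr4 in 3 of 6 NT + Stroke mice. FPKM depends on the exon length used for each gene, 4946 bases for Trem2, and the transcripts behind these lengths were not compared with those in use in the tissue.

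In hypertensive mice the members' fold changes were also positive, but none passed the test. In HT + Stroke vs HT + Sham, 0 of 10 members passed at an adjusted P of 0.05 by edgeR, while 10 of 10 did at the same unadjusted P. Of 16741 genes tested, 0.544% were higher and 0.102% lower at the adjusted threshold, and 2842 had an unadjusted P under 0.05. The members' log2 fold changes were 0.49 to 2.14 (median 1.22), with adjusted P from 0.0522 (Fcgr1) to 0.282 (Fcgr2b). In 0 of 10 members did the HT + Stroke mice lie above all HT + Sham mice, a pattern that 0.579% of all genes showed. DESeq2 called 8 of 10 members, where it called 2.80% of all genes in either direction, and edgeR with all 4 groups in one fit called 9 of 10, where it called 6.39% of all genes.

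The spread within the HT + Stroke group was wide. Tyrobp was 15.0 to 31.8 CPM (median 19.1) in HT + Sham and 26 to 102 CPM (median 56.0) in HT + Stroke. Mice 1 and 6 of HT + Stroke had 26.1 and 26 CPM, below the 31.8 CPM of HT + Sham mouse 6, and the other 4 had 46.6 to 102 CPM. The log2 fold change was 1.49 (SE 0.361, 95% interval 0.69 to 2.28, adjusted P = 0.0832). Trem2 was 17.6 to 41.0 CPM (median 22.7) in HT + Sham and 28.4 to 117 CPM (median 65.3) in HT + Stroke, and the log2 fold change was 1.42 (SE 0.377, adjusted P = 0.0996). Counts of Fcgr4 were 4 to 29 in HT + Sham mice and 8 to 104 in HT + Stroke mice, and the log2 fold change was 2.14 (SE 0.635, adjusted P = 0.116). The same pair of HT + Stroke mice was the lowest in each of these genes.

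The other members overlapped in the same way. Fcer1g was 9.91 to 26.7 CPM (median 13) in HT + Sham and 15.5 to 59.4 CPM (median 37.2) in HT + Stroke. Fcgr1 was 2.62 to 5.21 CPM (median 3.29) and 4.56 to 15.2 CPM (median 8.29). Fcgr3 was 12.2 to 22.2 CPM (median 13.8) and 13.7 to 48.4 CPM (median 33.7). In these genes 4 of 6 HT + Stroke mice lay above every HT + Sham mouse. Fcgr2b was 3.09 to 11.9 CPM (median 4.46) in HT + Sham and 3.13 to 22.9 CPM (median 12.7) in HT + Stroke. Its lowest and highest HT + Stroke mice differed 7.33-fold, and its adjusted P was the highest of the members.

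Among the enzymes, Syk was 2.90 to 6.52 CPM (median 4.37) in HT + Sham and 3.59 to 17.8 CPM (median 7.17) in HT + Stroke. Plcg2 was 3.08 to 4.92 CPM (median 3.98) and 3.76 to 11.2 CPM (median 6.40), and Inpp5d was 11 to 13.5 CPM (median 12) and 11.7 to 25.1 CPM (median 16.5). Inpp5d again had the smallest log2 fold change, 0.49 (SE 0.146, adjusted P = 0.108), and here 5 of 6 HT + Stroke mice lay above all HT + Sham mice. The SD of log2(CPM + 1) was larger in HT + Stroke than in NT + Stroke for 10 of 10 members, and for 68.2% of all genes kept by the filter.

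Mouse by mouse, HT + Stroke mouse 1 exceeded every HT + Sham mouse in 1 of 10 members and HT + Stroke mouse 6 in 0 of 10. HT + Stroke mice 2, 3 and 4 exceeded every HT + Sham mouse in 10 of 10, and mouse 5 in 8 of 10. Against NT + Sham, HT + Stroke mouse 1 exceeded every mouse in 6 of 10 members and HT + Stroke mouse 6 in 7 of 10. HT + Sham mouse 6 was the highest of its group in 8 of 10 members and lay above every NT + Sham mouse in 9 of 10. Without these 3 mice, 10 of 10 members had an adjusted P under 0.05 in HT + Stroke vs HT + Sham, with log2 fold changes of 0.64 to 3.15 and adjusted P from 2.77e-05 to 0.00911. The share of all genes called in either direction in that fit was 8.47%. That omission was chosen after the data were seen, from genes that respond to the injury, and so favors a difference. Omitting HT + Stroke mouse 1 alone gave 6 calls among the members (3.15% of all genes), HT + Stroke mouse 6 alone 5 (1.74%), HT + Stroke mouse 5 alone 1 (1.23%) and HT + Sham mouse 6 alone 1 (0.890%).

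**Figure D2:**
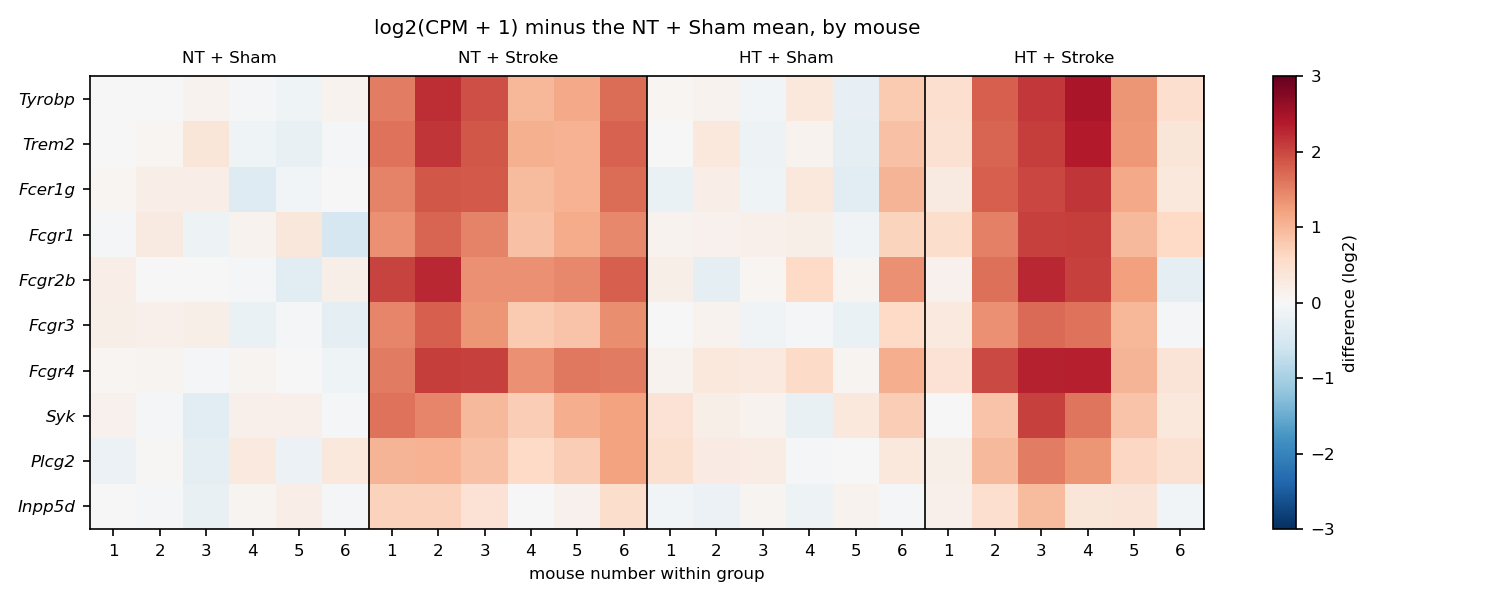
Difference of log2(CPM + 1) from the NT + Sham mean for each member (rows) and each of the 24 mice (columns, numbered within their group). Mice 1 and 6 of HT + Stroke are the lowest of their group in every member. They still lie above all NT + Sham mice in 6 of 10 members (mouse 1) and 7 of 10 (mouse 6). Mouse 6 of HT + Sham is above the others of its group in 8 of 10 members.

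Angiotensin II alone was not accompanied by a called difference in any member. In HT + Sham vs NT + Sham, 0 of 9 members tested passed by edgeR at the adjusted or the unadjusted threshold of 0.05, and of all 16581 genes tested 0% passed at the adjusted and 1332 at the unadjusted one. DESeq2 called 0 of 10 members. At an unadjusted P under 0.05 there were 2 of 10 by DESeq2, and also 2 of 10 by edgeR on all genes with a count. No share of all genes is at hand for these counts. Fcgr2b had the largest log2 fold change of the members tested by edgeR, 0.53 (SE 0.267, 95% interval -0.04 to 1.10, adjusted P = 0.669). The interval of Tyrobp was -0.09 to 0.51. Fcgr4 was below the filter on low counts and was not tested. The HT + Sham mice held 63 of its counts in total and the NT + Sham mice 18, and 29 of the 63 counts were those of HT + Sham mouse 6. The ratio of summed counts per library total was 3.84, with an exact interval of 2.24 to 6.89 that covers counting error only. Fcgr4 levels were above all NT + Sham mice in 5 of 6 HT + Sham mice, and without the filter its log2 fold change was 1.85, with an adjusted P of 0.384 by edgeR.

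After stroke, hypertensive and normotensive mice could not be distinguished in any member. In HT + Stroke vs NT + Stroke, 0 of 10 members had an adjusted P under 0.05, as did 0% of 17008 genes by edgeR, with 0 members and 1230 genes at an unadjusted P under 0.05. DESeq2 called 0 of 10 members. The log2 fold changes were -0.32 (Fcgr2b) to 0.06 (Fcgr1), and the sign of most members changed when libraries were left out. The intervals were wide. They ran from -0.82 to 0.79 for Tyrobp, -0.87 to 0.74 for Trem2, -1.28 to 0.64 for Fcgr2b and -0.39 to 0.35 for Inpp5d. Differences of these sizes, and larger ones, can miss the adjusted threshold. In HT + Stroke vs HT + Sham a log2 fold change of 1.49 for Tyrobp was not called (edgeR, adjusted P = 0.0832). The highest level of Tyrobp in any mouse, 102 CPM, and its lowest level after stroke, 26 CPM, were both in HT + Stroke.

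The difference between the 2 stroke effects was tested as an interaction. No member passed, and 0% of 17608 genes did by edgeR, where 1836 genes and 1 member had an unadjusted P under 0.05, and DESeq2 called 0 of 10 members. That member was Fcgr4, with an interaction of -1.96 on the log2 scale (SE 0.793, 95% interval -3.59 to -0.33, adjusted P = 0.414). Its stroke difference was 4.10 in normotensive and 2.14 in hypertensive mice, and without the 3 mice that stood apart the interaction was -0.94. For the other 9 members the interaction was -0.85 (Fcgr2b) to 0.03 (Inpp5d). Against NT + Sham mice, HT + Stroke mice had 8 of 9 members tested higher, where 8.38% of 16749 genes were. Inpp5d missed the threshold (log2 fold change 0.45, adjusted P = 0.0551) and Fcgr4 was not tested. Both were called by DESeq2 (10 of 10 members, 9.92% of all genes) and by edgeR with all 4 groups in one fit (10 of 10 members, 18.8% of all genes). The same NT + Sham mice served as controls for both stroke groups.

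Ratios within a mouse addressed whether the parts of the pathway kept their proportions. They were computed as log2 ratios of FPKM + 0.1 and compared by exact two-sided permutation tests, adjusted over 16 tests (4 ratios in 4 comparisons). Only the ratio of Inpp5d, the inhibitory phosphatase, to Syk, the kinase, differed after adjustment. It was 1.87 ± 0.0856 in NT + Sham and 1.09 ± 0.159 in NT + Stroke (SD, n = 6), a difference of -0.78 (exact permutation P = 0.00216, the smallest that 6 against 6 mice allow, adjusted P = 0.0346), and 6 of 6 NT + Stroke mice lay below all NT + Sham mice. In hypertensive mice it was 1.57 ± 0.319 in HT + Sham and 1.29 ± 0.52 in HT + Stroke, a difference of -0.28 that was smaller than the spread within the groups (exact permutation, adjusted P = 0.472). The HT + Sham mean lay between those of the NT groups, and 4 of 6 HT + Sham mice were below every NT + Sham mouse (difference from NT + Sham -0.30, exact permutation P = 0.0519, adjusted P = 0.339). Ratios of other genes to Syk were not computed. In NT + Stroke vs NT + Sham the log2 fold change was 1.41 for Syk and -0.01 for the median of all genes tested. A fall relative to Syk is therefore not particular to Inpp5d.

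The ratio of Trem2 to its adaptor Tyrobp stayed within a narrow range. It was -2.59 ± 0.149 in NT + Sham, -2.62 ± 0.0909 in NT + Stroke, -2.61 ± 0.142 in HT + Sham and -2.68 ± 0.0333 in HT + Stroke, and its differences in the 4 comparisons were -0.07 to -0.02 (exact permutation, adjusted P from 0.392 to 0.84). The ratio of Tyrobp to Fcer1g was 0.90 ± 0.206 in NT + Sham, 0.91 ± 0.183 in HT + Sham and 1.06 ± 0.1 in HT + Stroke, and its differences in the 4 comparisons were 0.01 to 0.15. The ratio of the inhibitory Fcgr2b to the summed activating receptors Fcgr1, Fcgr3 and Fcgr4 was -3.59 ± 0.313 in NT + Sham, -3.25 ± 0.238 in NT + Stroke, -3.36 ± 0.416 in HT + Sham and -3.55 ± 0.304 in HT + Stroke. Its difference was 0.34 in NT + Stroke vs NT + Sham (exact permutation P = 0.0649, adjusted P = 0.339), and with a pseudocount of 1 FPKM, which exceeds the mean of Fcgr2b in NT + Sham, it changed sign to -0.28. No direction could be given for this ratio.

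**Figure D3:**
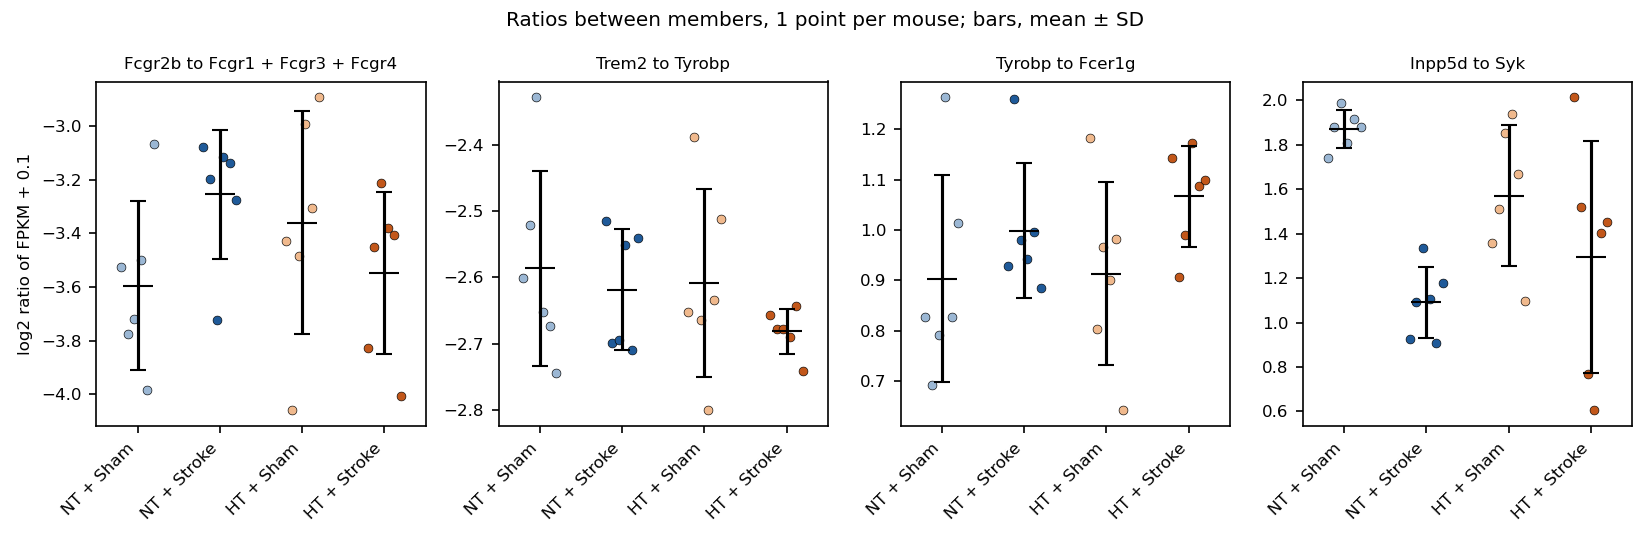
Log2 ratios of FPKM + 0.1 between members in every mouse, with bars for the mean ± SD of 6 mice per group. The ratio of Inpp5d to Syk falls from 1.87 in NT + Sham to 1.09 in NT + Stroke without overlap, while the other ratios overlap between all groups.

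General markers of phagocytes moved with the members. The list of 8 genes (Aif1, Csf1r, Laptm5, Ptprc, Spi1, Itgam, Cd68 and Cd53) had 8 of 8 genes higher in NT + Stroke vs NT + Sham, with a median log2 fold change of 1.13, and its summed level was 167 to 187 CPM in NT + Sham, 274 to 486 in NT + Stroke, 172 to 254 in HT + Sham and 201 to 547 in HT + Stroke. Of 10 markers of homeostatic microglia, 8 were higher in NT + Stroke, with a median log2 fold change of 0.42. P2ry12, a defining marker of microglia, was 21.3 to 28.2 CPM in NT + Sham and 23.0 to 29.5 CPM in NT + Stroke. Of 8 markers of border and infiltrating macrophages, 5 were higher (summed level 8.65 to 14.7 CPM in NT + Sham and 21.5 to 36.9 in NT + Stroke). The part of cell numbers in the members' differences was not tested.

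Each member was therefore also expressed relative to the mean log2(CPM + 1) of the 8 phagocyte markers, which itself differed by 1.13 in NT + Stroke vs NT + Sham. On this scale 5 of 10 members were higher at an exact permutation P under 0.05, where 0.812% of 17608 genes were, and 1 of 10 was lower, where 95.2% of genes were. These P-values are not adjusted, and 20 such tests were made on members. The higher members were Fcgr2b (difference 0.58), Fcgr4 (0.57), Tyrobp (0.46), Trem2 (0.45) and Fcer1g (0.34), with exact permutation P from 0.00216 to 0.00866. The markers' own log2 fold changes by edgeR ran from 0.69 (Csf1r) to 2.29 (Cd68). Those of Fcgr2b, Tyrobp, Trem2 and Fcer1g lay within this range, and only that of Fcgr4 lay above it. A value above the marker mean is therefore not a value above every marker. Fcgr1 (0.21), Fcgr3 (0.14), Syk (0.06) and Plcg2 (-0.22) did not differ from the markers beyond the spread, with exact permutation P from 0.113 to 0.725. Inpp5d was lower, by -0.72 (exact permutation P = 0.00216), which is the direction of nearly all genes on this scale. The added 1 CPM compresses differences of members at low levels, above all of Fcgr4. With 0.1 CPM added in its place the difference of Fcgr4 from the markers was 2.28 (exact permutation P = 0.00216), that of Fcgr1 was 0.37 (exact permutation P = 0.0476), that of Syk 0.15 and that of Plcg2 -0.13. In HT + Stroke vs HT + Sham, where the markers differed by 0.90, 3 of 10 members were higher (0.182% of genes) and 1 of 10 was lower (88.0% of genes). They were Tyrobp (0.39), Trem2 (0.34) and Fcgr1 (0.19), and Inpp5d (-0.49), with exact permutation P from 0.00649 to 0.0433. The markers' own log2 fold changes there were 0.54 (Csf1r) to 1.86 (Cd68), and those of the 3 higher members lay within this range.

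Markers of other cell types that express Fc receptors had lower summed levels than the phagocyte markers. Of 6 neutrophil markers 2 had enough counts to be tested in NT + Stroke vs NT + Sham, and both were higher (summed level 0.655 to 1.78 CPM in NT + Sham and 2.49 to 36.8 CPM in NT + Stroke). NK and T cell markers, 8 genes, summed to 0.693 to 1.85 CPM and 2.45 to 4.04 CPM. Mast cell and basophil markers, 6 genes, summed to 0.107 to 0.561 CPM and 1.40 to 6.11 CPM, and B and plasma cell markers, 6 genes, to 1.51 to 2.68 CPM and 2.49 to 14.6 CPM. No marker of these lists was at 0 in all 24 libraries. The sums were below those of the phagocyte markers in every mouse, but sums over different genes do not compare cell numbers. The highest neutrophil sum, 36.8 CPM, exceeded the highest level of Fcgr4 in NT + Stroke, 3.86 CPM. The part of these cell types in the members' differences was not tested.

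Among the 12 stroke mice the members varied together. After the mean of each group was subtracted, Pearson's r of log2(CPM + 1) with Tyrobp was 0.75 (Inpp5d) to 0.99 (Trem2) and Spearman's rho 0.73 to 0.99, and 9 of 9 members had a permutation P under 0.05 for each, unadjusted. For Trem2 the permutation P was 1e-05, the smallest that 100000 permutations give. Of 17608 genes, 5.73% had an r at or above 0.75 with Tyrobp, the value of the lowest member. Without the pair of mice farthest from the median of Tyrobp, mice 4 and 6 of HT + Stroke, r was 0.76 to 0.99. HT + Stroke mice 1 and 6 were singled out after the data were seen. Without them r was 0.59 (Inpp5d) to 0.99 (Trem2) over 10 mice, with 7 of 9 members at a permutation P under 0.05. Within the 6 NT + Stroke mice alone it was 0.98 for Trem2, 0.98 for Fcgr1, 0.96 for Fcer1g, 0.92 for Fcgr3 and 0.88 for Fcgr4 (exact permutation P from 0.00139 to 0.0292). For Inpp5d it was 0.82, for Plcg2 0.69, for Fcgr2b 0.61 and for Syk 0.52 (exact permutation P from 0.05 to 0.307).

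Over all 24 libraries the genes most like Tyrobp were found by Pearson's r of log2(CPM + 1), as a description. Trem2 ranked 1 of 17607 genes (r = 0.992), and the 5 highest genes that are not members were C1qa (0.992), Ctsz (0.992), C1qc (0.990), Ctsd (0.989) and Npc2 (0.988). C1qa and C1qc encode chains of complement C1q, Ctsz and Ctsd lysosomal cathepsins, and Npc2 a lysosomal cholesterol carrier. Of the members, Fcer1g ranked 10, Fcgr4 37, Fcgr3 41, Fcgr1 80, Fcgr2b 268, Plcg2 384, Syk 493 and Inpp5d 988 (r = 0.796). The 24 libraries share the difference between sham and stroke mice, which enters every one of these values.

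Other genes of the pathway were read from lists that were also chosen with earlier results known. Of 23 other receptors that couple to ITAM adaptors or related kinases, 11 were tested in NT + Stroke vs NT + Sham and 9 rose, with a median log2 fold change of 0.86 over those tested. The largest increases were those of Clec7a, the beta-glucan receptor dectin-1, at 0.292 ± 0.0957 CPM in NT + Sham and 17.9 ± 7.9 CPM in NT + Stroke mice (a log2 fold change of 5.92, SE 0.52, adjusted P = 9.66e-06), of Clec4d (5.35, adjusted P = 2.09e-06), a C-type lectin that had 0 to 2 counts in NT + Sham mice, and of Itgb2 (1.99, adjusted P = 2.06e-06), the integrin beta chain of leukocytes. Clec7a and Clec4d passed the filter on low counts only through the NT + Stroke mice. None of the 10 tested in HT + Stroke vs HT + Sham passed by edgeR. Clec7a averaged 1.08 ± 1.65 CPM in HT + Sham mice and 15.4 ± 15 CPM in HT + Stroke mice (log2 fold change 3.79, adjusted P = 0.118).

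Of 39 genes of ITAM signaling beyond the members, 37 were tested in NT + Stroke vs NT + Sham, 24 rose and 0 fell, with a median log2 fold change of 0.71. The largest increases were of the inhibitory receptors Cd300lf (4.54, SE 0.357, adjusted P = 1.32e-07) and Pirb (2.96, SE 0.225, adjusted P = 9.93e-08). Cd300lf had 0 to 3 counts in each NT + Sham mouse and 31 to 64 in each NT + Stroke mouse, and passed the filter on low counts only through the latter. Pirb was 0.539 ± 0.121 CPM in NT + Sham and 4.25 ± 1.12 CPM in NT + Stroke. Of 36 tested in HT + Stroke vs HT + Sham, 2 rose. They were Prkcd (1.33, adjusted P = 0.0334), a protein kinase C, and Blnk (0.58, adjusted P = 0.0293), an adaptor between SYK and phospholipase C, which were named after their values were seen.

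Of 10 genes for ligands of TREM2 and its shedding and partners, 9 were tested in NT + Stroke vs NT + Sham, 6 rose and 1 fell. Lgals3, which encodes galectin-3, had 2 to 19 counts per mouse in NT + Sham and 210 to 1420 in NT + Stroke, and its log2 fold change was 6.30 (SE 0.673, adjusted P = 6.55e-05). For Ms4a6d, of a membrane protein family associated with TREM2, the value was 2.60 (SE 0.274, adjusted P = 3.84e-06). Apoe, the lipoprotein ligand, rose from 2340 ± 308 to 5820 ± 1432 CPM (log2 fold change 1.32, adjusted P = 2.54e-05). The gene that fell was Il34 (-0.22, adjusted P = 0.0434), a ligand of CSF1R that was named after its value was seen. None of 9 passed in HT + Stroke vs HT + Sham, with a log2 fold change of 0.97 for Apoe (adjusted P = 0.135).

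Of 13 other immunoglobulin receptors, 6 were tested and 4 rose in NT + Stroke vs NT + Sham. Fcrls, a receptor-like gene of microglia, rose from 24.2 ± 2.73 to 44.5 ± 6.57 CPM (log2 fold change 0.88, adjusted P = 4.19e-06), while Fcrl1 (1.31, adjusted P = 0.0134) and the intracellular antibody receptor Trim21 (0.81, adjusted P = 0.0251) had lower counts. Trim21 lost its call without NT + Sham mouse 5, NT + Sham mouse 6 or NT + Stroke mouse 4, left out 1 at a time. Immunoglobulin genes themselves, which encode the ligands of Fc receptors, were 12 genes, of which 6 were tested and 3 rose. Transcripts in the tissue do not measure antibody from plasma, and the paper reports more IgG deposition in the prefrontal cortex after stroke. Igkc, the kappa light chain, had 2 to 53 counts per mouse in NT + Sham and 83 to 891 in NT + Stroke, and its log2 fold change was 4.01 (SE 0.86, adjusted P = 0.00611). The change was 1.94 for Jchain (adjusted P = 0.00176) and 2.69 for Igha (adjusted P = 0.0316), and Igha lost its call without any 1 of 7 libraries. Ighg2c, the IgG heavy chain tested, did not pass by edgeR (log2 fold change 0.09, adjusted P = 0.891). Ighm (0.19, adjusted P = 0.488) and Ighd (0.24, adjusted P = 0.657) did not pass either. None of the 6 receptors and 5 immunoglobulin genes tested in HT + Stroke vs HT + Sham passed. In HT + Sham vs NT + Sham and in HT + Stroke vs NT + Stroke no gene of these 5 lists passed.

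The promoters of the members with the largest and the smallest log2 fold change in NT + Stroke vs NT + Sham are shown because they hold the same short purine-rich motif. The windows run from 250 bases before to 50 bases after the transcript start (RefSeq, GRCm38.p6), 5′ to 3′ on the strand of the gene, with the motif GAGGAAGT in capitals. That of Fcgr4 is chr1:171018676-171018975 (plus strand), where the motif lies on the other strand and reads ACTTCCTC, with its first base at position -24. That of Inpp5d is chr1:87620062-87620361 (plus strand), with the motif on the strand of the gene at position -20.
Fcgr4: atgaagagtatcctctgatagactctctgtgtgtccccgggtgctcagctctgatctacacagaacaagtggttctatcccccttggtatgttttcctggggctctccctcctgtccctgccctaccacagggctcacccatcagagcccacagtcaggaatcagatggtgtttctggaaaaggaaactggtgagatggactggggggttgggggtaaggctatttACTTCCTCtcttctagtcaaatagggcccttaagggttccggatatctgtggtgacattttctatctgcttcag
Inpp5d: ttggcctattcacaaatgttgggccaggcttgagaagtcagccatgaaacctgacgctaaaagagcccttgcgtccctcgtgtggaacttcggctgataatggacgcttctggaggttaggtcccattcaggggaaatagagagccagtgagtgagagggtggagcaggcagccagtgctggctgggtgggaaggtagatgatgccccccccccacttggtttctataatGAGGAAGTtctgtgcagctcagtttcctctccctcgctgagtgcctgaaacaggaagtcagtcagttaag
Windows were at hand for 9 of 10 members, all but Tyrobp. GAGGAAGT, searched on both strands, was in 2 of these 9 genes and in 3.2% of 32851 windows, and its shorter core GAGGAA was in 6 of 9 genes (Fcgr1, Fcgr3, Fcgr4, Inpp5d, Syk and Trem2) and in 28.28% of windows. GAGGAA is part of GAGGAAGT, so the counts overlap. Members were counted per gene, by a match in any of its windows, while the percentages are per window. Fcgr3 and Syk have more than 1 window, and Syk held GAGGAA in 1 window but not in the other. The gene counts and the percentages are therefore unlike measures. GAGGAA is the core that the myeloid transcription factor PU.1 is known to prefer. A match is a description of these letters only.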

How the data were processed

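Poly(A) RNA was sequenced from 24 libraries, 6 per group. The authors deposited 4 tables whose counts are whole numbers of reads per gene, not normalized, and whose FPKM values the authors made by dividing by gene length and library size. Per the labels the processing tools were featureCounts 1.5.0-p3 and DESeq2 1.20.0. The aligner and genome build are not given in the sources used here, but all 10 members have the same position in GENCODE M21 on GRCm38. Tables were joined by gene identifier, and 0 of 48 comparisons of a library between tables differed. The 56 columns of normalized values, and the authors' fold changes and P-values, were not used.

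Differences between groups were tested with edgeR 4.0.16 in R 4.3.3 (filterByExpr with minimum count 10 and minimum total 15, TMM scaling, two-sided quasi-likelihood test with robust shrinkage), and P-values were adjusted by Benjamini-Hochberg across every gene in the fit, at a threshold of 0.05. The fit was tested on counts simulated for the NT + Stroke and NT + Sham libraries, with the same biological spread set for every gene. That simulation did not cover the wider spread of HT + Stroke. Total counts per library were 15922919 to 24865998, and intervals of counts cover counting error only. Of 60 pairs of libraries within groups, none held the same counts, and a chi-square per degree of freedom of 5.08 or more separated each pair. Ratios, values relative to phagocyte markers (log2(CPM + 1)) and correlations were computed with SciPy 1.17.1 or NumPy 2.4.6, by exact tests over 924 regroupings or 100000 permutations. Unlike the planned design, P-values relative to phagocyte markers and of correlations were not adjusted over the members. The members, gene lists, tests and named-gene rule were chosen with earlier results of these data known. Named genes are all members, the 3 genes with the largest absolute log2 fold change among those called in NT + Stroke vs NT + Sham in each pathway list, and the 5 other genes most correlated with Tyrobp. One gene that this rule names is not reported here. Marker lists for astrocytes, oligodendrocytes, endothelial cells and red blood cells were also read. In NT + Stroke vs NT + Sham 4 of 5, 1 of 4, 1 of 4 and 0 of 5 of their genes were higher, as were 2 of 4 olfactory bulb and 0 of 4 striatal markers, and 5 of 6 markers of cortical neurons were lower. In HT + Stroke vs HT + Sham 3 of 4 oligodendrocyte markers were higher. Alternatives were DESeq2 1.42.0, limma 3.58.1 on log2(FPKM + 1) and log2(FPKM + 0.1), other scalings and filters, the library number as a block, all 4 groups in one fit, other pseudocounts or marker lists, each library left out in turn and, added after seeing the data, the omission of HT + Sham mouse 6 and HT + Stroke mice 1 and 6.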

Additional observations from a re-analysis of the deposited data

Results flagged for a closer look

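Groups of 6 mice were searched for a highest or lowest mouse whose gap to the next passed Dixon's 95% critical value as a share of the range of the group, in 56 sets of values (10 members and 4 ratios in 4 groups). Chance gives this in about 1 in 20 sets, and 5 were found.

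Mouse 6 of HT + Sham was the highest of its group in 3 of them. It had 26.7 CPM of Fcer1g, where the others had 9.91 to 15.8. It had 5.21 CPM of Fcgr1, where the others had 2.62 to 3.38, and 22.2 CPM of Fcgr3, where the others had 12.2 to 15.3. The same mouse had 550 CPM of Gfap (others 163 to 242), 10.5 CPM of C3 and 16.1 CPM of Lgals3. Its part in the comparisons is given in the results as the calls without it.

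In NT + Stroke, mouse 3 had a log2 ratio of Fcgr2b to the activating receptors of -3.72, where the others had -3.28 to -3.08. Mouse 2 had a log2 ratio of Tyrobp to Fcer1g of 1.26, where the others had 0.884 to 0.996. Without mouse 2 the difference in this ratio between NT + Stroke and NT + Sham was 0.04 in place of 0.10.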

How the results depend on the processing

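The 10 calls of members in NT + Stroke vs NT + Sham were made under every alternative that tested the gene (9 of 9 where at least 10 counts in every library were required, which left out Fcgr4), including each library left out. The 0 calls in the interaction, HT + Stroke vs NT + Stroke and HT + Sham vs NT + Sham stayed at 0 under all alternatives. In HT + Stroke vs HT + Sham the count of members called was 0 by edgeR, 8 by DESeq2, 9 with all 4 groups in one fit and 10 without the 3 mice that stood apart, and 0 to 6 with 1 library left out. In HT + Stroke vs NT + Sham it was 6 to 10 with 1 library left out. Igha lost its call in NT + Stroke vs NT + Sham with all genes that had a count, the block, and all groups in one fit.

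Without the 3 mice, HT + Stroke vs NT + Stroke gave 0.33 for Tyrobp, 0.28 for Trem2, 0.30 for Fcer1g, 0.10 for Fcgr2b, 0.14 for Fcgr3, 0.36 for Fcgr4, 0.24 for Syk and 0.14 for Inpp5d on the log2 scale, all of which had been below 0. It gave -0.03 for Fcer1g and -0.07 for Fcgr3 in HT + Sham vs NT + Sham. The interaction became 0.30 for Tyrobp, 0.29 for Trem2 and Fcgr1, 0.34 for Fcer1g, 0.22 for Fcgr3 and 0.03 for Syk and Plcg2. The ratio of Fcgr2b to the activating receptors became 0.09 in HT + Stroke vs HT + Sham, and that of Inpp5d to Syk -0.01 in HT + Stroke vs NT + Stroke. None of these values had an adjusted P under 0.05 by edgeR or by the exact permutation test.

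Fcgr1 in HT + Stroke vs NT + Stroke was -0.03 and -0.07 with limma on log2(FPKM + 1) and log2(FPKM + 0.1), and the interaction of Inpp5d was -0.03 without TMM scaling and -0.01 with either limma fit. With a pseudocount of 1 FPKM the ratio of Fcgr2b to the activating receptors was -0.28 in NT + Stroke vs NT + Sham and -0.44, past the threshold, in HT + Stroke vs HT + Sham, and that of Trem2 to Tyrobp was -0.18, also past it, in HT + Stroke vs HT + Sham. A pseudocount of that size exceeds the mean of Fcgr2b in NT + Sham. Against the homeostatic microglia list 7 members differed, in either direction, at an unadjusted exact P under 0.05 in HT + Stroke vs HT + Sham. Against the phagocyte list 4 did, 3 higher (0.182% of all genes) and 1 lower (88.0% of all genes). No share of all genes is at hand for the homeostatic list, so the 7 cannot be read as a trait of the members.

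With 1 library left out, values crossed 0 in HT + Stroke vs NT + Stroke for Tyrobp (-0.25 to 0.14), Trem2 (-0.30 to 0.09), Fcer1g (-0.24 to 0.10), Fcgr1 (-0.12 to 0.20), Fcgr4 (-0.37 to 0.10), Syk (-0.42 to 0.06) and Inpp5d (-0.16 to 0.07), in HT + Sham vs NT + Sham for Fcer1g (-0.03 to 0.33) and Fcgr3 (-0.07 to 0.13), and in the interaction for Inpp5d (-0.12 to 0.11). The ratio of Trem2 to Tyrobp was -0.06 to 0.02 in NT + Stroke vs NT + Sham and -0.07 to 0.03 in HT + Sham vs NT + Sham, and that of Tyrobp to Fcer1g -0.04 to 0.08 in HT + Sham vs NT + Sham. The cause of these changes was not tested.

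The library numbers 1 to 6 recur in each group, but same-numbered libraries did not deviate together (r from -0.48 to 0.36 over 36 pairs, above 0.1 in 15), so they were not treated as pairs. With the library number as a replicate block, 10 of 10 members were called in NT + Stroke vs NT + Sham, 0 in HT + Stroke vs HT + Sham and 6 of 9 in HT + Stroke vs NT + Sham, and Fcgr1 was -0.07 in HT + Stroke vs NT + Stroke. Depth limits Fcgr4 in sham mice, with 1 to 4 counts per NT + Sham mouse.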
